A study of Mus musculus with 9 samples.

Results

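The subunits of the mitochondrial respiratory chain and of the ATP synthase were examined in laser-captured mouse motor neurons and in spinal cord. The set held 52 nuclear genes: 20 of complex I, 4 of complex II, 6 of complex III, cytochrome c, 11 of complex IV and 10 of complex V. Each gene was read by the probe sets that the array's annotation gives to its symbol alone, which exist here for 51 of the 52. Cox7b, a small subunit of complex IV, had no such probe set and is not analysed here. The 51 genes had 107 probe sets, and 98 of these passed the filter on dim probe sets, at least 1 for every gene. They stand among 18193 genes with a probe set of their own, of which 12983 were tested. Ndufa4 was counted with complex IV, where its protein belongs despite its name.

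The study hybridised 9 single-channel Affymetrix mouse arrays in 3 groups of 3. Motor neurons were captured by laser from SOD1-mutant mice and from wild-type mice, and total spinal cord was taken from wild-type mice. Each description speaks of a mouse without identifying it, and the source given for all 9 samples is spinal cord and ventral spinal cord, although the cord samples are described as total. Every title carries the tag D28, which is not explained. The labels do not name the SOD1 allele, the strain or the sex, state no age in words and do not say how motor neurons were recognised. Nothing says whether arrays of a group came from separate animals, so the p-values below speak only for the scatter among these hybridisations, part of which may be technical.

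The respiratory chain sits in the inner mitochondrial membrane and hands electrons from NADH (complex I) and succinate (complex II) through ubiquinone, complex III, cytochrome c and complex IV to oxygen. Complexes I, III and IV pump protons as they do so, and the ATP synthase, complex V, uses the returning protons to make ATP. A few core subunits are encoded in mitochondrial DNA, while all 52 genes described here are nuclear and their proteins are imported. Motor neurons are large cells with long axons and depend on this pathway for ion pumping and transport, and damaged mitochondria are a known feature of mice with mutant SOD1, a gene of inherited amyotrophic lateral sclerosis.

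Many nuclear genes of the pathway are known to carry promoter sites for the transcription factors NRF1, GABPA (an ETS family factor, also called NRF2) and YY1. RefSeq promoters of build GRCm38.p6, 250 bases before to 50 bases after each start, were matched for 41 of the 51 genes, which gave 45 promoters. The letters GCGCA and GCGC with any 1 base between them (NRF1), CCGGAAG (ETS) and AAGATGGC (YY1) were searched on both strands, and no matches of different motifs overlapped. NRF1 letters were in 11 of the 45 promoters (24.44%) and in 4.6% of all 32851 promoters in the table. ETS letters were also in 11 of the 45 (24.44%), against 8.86% of all promoters. YY1 letters were in 6 (13.33%), against 2.75% of all. Of the 6 genes with YY1 letters, 5 were complex I genes (Ndufa9, Ndufb8, Ndufc1, Ndufs4 and Ndufs7), out of 17 complex I genes with a promoter, and the other was Atp5j. Those of complex I all lay after the start, at 23 to 39, and that of Atp5j at -88. The YY1 letters hold ATG, and whether they overlap a start codon was not examined. NRF1 letters were in 4 of 9 complex V and 2 of 17 complex I genes with a promoter. One promoter per complex is shown, each of a gene whose values are given below, written 5′ to 3′ on the gene's strand with the matched letters in capitals.
Ndufa5 (complex I, chr6:24527641-24527940, minus strand, NRF1 letters at -26 from the start): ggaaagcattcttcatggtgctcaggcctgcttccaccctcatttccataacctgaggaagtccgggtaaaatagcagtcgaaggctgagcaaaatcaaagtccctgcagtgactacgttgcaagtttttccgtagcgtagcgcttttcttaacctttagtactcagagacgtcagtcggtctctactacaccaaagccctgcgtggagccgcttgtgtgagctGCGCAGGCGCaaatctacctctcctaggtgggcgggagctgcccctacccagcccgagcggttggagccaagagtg
Sdhd (complex II, chr9:50603800-50604099, minus strand, NRF1 letters at -79 and ETS letters at -46): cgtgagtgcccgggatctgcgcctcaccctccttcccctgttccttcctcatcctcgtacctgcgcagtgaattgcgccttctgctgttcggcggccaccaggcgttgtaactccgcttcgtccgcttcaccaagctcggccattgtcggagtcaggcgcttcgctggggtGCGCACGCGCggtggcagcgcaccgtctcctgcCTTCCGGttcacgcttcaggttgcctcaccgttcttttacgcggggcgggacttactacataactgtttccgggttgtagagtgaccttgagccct
Uqcrc1 (complex III, chr9:108936398-108936697, plus strand, NRF1 letters at 6 and 31): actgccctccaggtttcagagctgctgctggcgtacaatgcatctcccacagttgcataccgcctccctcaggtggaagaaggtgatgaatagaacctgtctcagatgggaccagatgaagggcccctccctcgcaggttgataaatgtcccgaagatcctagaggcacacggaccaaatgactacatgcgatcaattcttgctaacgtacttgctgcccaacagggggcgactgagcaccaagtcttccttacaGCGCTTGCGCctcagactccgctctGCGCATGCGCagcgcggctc
Cox6b1 (complex IV, chr7:30626065-30626364, minus strand, ETS letters at -28): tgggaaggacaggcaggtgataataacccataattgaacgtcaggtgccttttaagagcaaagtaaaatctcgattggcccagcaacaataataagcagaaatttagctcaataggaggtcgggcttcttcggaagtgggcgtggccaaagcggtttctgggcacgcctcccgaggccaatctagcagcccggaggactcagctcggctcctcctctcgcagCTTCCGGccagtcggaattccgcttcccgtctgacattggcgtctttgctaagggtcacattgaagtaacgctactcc
Atp5l (complex V, chr9:44920693-44920992, minus strand, ETS letters at -212 and 25): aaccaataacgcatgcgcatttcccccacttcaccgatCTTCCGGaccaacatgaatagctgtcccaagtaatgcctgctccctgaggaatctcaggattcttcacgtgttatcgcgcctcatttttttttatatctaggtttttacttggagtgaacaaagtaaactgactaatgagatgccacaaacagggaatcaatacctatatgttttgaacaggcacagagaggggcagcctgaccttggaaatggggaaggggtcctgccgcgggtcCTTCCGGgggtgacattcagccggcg
The 5 promoters belong to genes that moved differently in the comparisons below. Ndufa5 and Cox6b1 were higher in captured neurons than in cord, Atp5l was lower, and Uqcrc1 was the second most changed gene between the genotypes by size. These matches describe letters only, and binding was not measured.

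The captured arrays differed from the cord arrays in more than cell type. The median signal was 274 to 366 on SOD1-mutant, 269 to 313 on wild-type motor neuron and 556 to 582 on cord arrays, although the authors had scaled each array to the same trimmed mean. For the Gapdh control probe sets, the 3′ signal exceeded the 5′ signal by 4.33 to 4.63 and 3.65 to 4.52 on the log2 scale in the captured groups, SOD1-mutant named first, and the difference was -0.292 to -0.264 in cord. The summed signal of 10 motor neuron markers was 180153 to 184543 on SOD1-mutant, 199171 to 214135 on wild-type motor neuron and 15804 to 22856 on cord arrays. In each group, 0 of these 10 were below background on all arrays. Glial markers remained on captured arrays: 8 astrocyte markers summed to 116971 to 133961 on SOD1-mutant, 89496 to 101737 on wild-type motor neuron and 280150 to 299863 on cord arrays. For 7 oligodendrocyte markers the sums were 315948 to 339091, 275122 to 293030 and 608743 to 722561, for 8 microglia markers 4939 to 5614, 3421 to 3963 and 50053 to 54101, and for 6 interneuron markers 29746 to 55226, 31678 to 33668 and 106534 to 117628. Of 7 vascular and meningeal markers the sums were 6565 to 7899, 5899 to 8556 and 58897 to 141302, and of 4 skeletal muscle markers 301 to 556, 174 to 459 and 619 to 802. Such sums are weighted to the brightest markers. Marker by marker, 7 of 8 astrocyte markers were called lower than cord in both genotypes, by the test given below. Their median log2 fold change was -2.57 in SOD1-mutant and -3.19 in wild-type motor neurons, and 1 per genotype lay above cord on all arrays. For oligodendrocyte markers 6 and 7 of 7 were lower (medians -1.91 and -2.06), and for microglia all 8 (-3.30 and -3.67). Of all genes, 35.3% and 36.1% were called lower. The part of these cells and of the 3′ bias in the differences from cord was not tested. In RNA of this kind, fewer cells of a type and less RNA per cell cannot be told apart.

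Array 3 of each group also stood apart across probe sets. Of the 27022 probe sets tested, its value lay between those of arrays 1 and 2 for 50.1% in SOD1-mutant, 51.7% in wild-type motor neurons and 40.01% in cord, while for the other arrays the share was 22.3% to 32.1%. Where arrays 1 and 2 differed more than 2-fold, array 3 lay between them for 76.4%, 75.1% and 74.0% of probe sets, against 41.7% to 60.03% for the other arrays where their own pair so differed. Among the 51 genes described here, array 3 was the middle one for 39 in SOD1-mutant motor neurons, 38 in wild-type motor neurons and 14 in cord, where array 1 was the middle one for 30. The labels do not say whether arrays share RNA, and shared RNA was not tested. The counts of calls by complex and by gene list are therefore also given with arrays 1 and 2 alone.

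Against cord, most subunits were higher in captured motor neurons of both genotypes, on the authors' scaling. In SOD1-mutant motor neurons 39 of the 51 genes were higher and 4 lower (Sdhc, Sdhd, Atp5l and Atp5b), with a median log2 fold change of 0.69. In wild-type motor neurons 42 were higher and 3 lower (Sdhc, Atp5b and Atp5l), with a median of 0.77. Calls come from limma on log2(intensity + 20.3), with a Benjamini-Hochberg adjusted p under 0.05 over all probe sets tested. Of all 12983 genes, 28.4% were called higher and 35.3% lower in SOD1-mutant motor neurons, with a median of -0.13. In wild-type motor neurons the shares were 31.1% higher and 36.1% lower, with a median of -0.10. With array weights the counts were 41 higher and 5 lower, and 45 higher and 5 lower, against 36.0% and 44.4%, and 39.5% and 44.3%, of all genes. The 2 comparisons share their cord arrays, so their results are set side by side and are not independent.

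How far the counts lean towards higher depended on the scaling, and the genes are among the brightest on the array. In rank by mean intensity their median was percentile 98.2 of the genes, and 1 of the 51, Cox7c, lay below the median of genes, at percentile 30.7. With quantile normalization the count was 24 higher and 11 lower in SOD1-mutant motor neurons, against 39.0% and 24.6% of all genes. In wild-type motor neurons it was 32 higher and 10 lower, against 42.2% and 26.2%. The genes' median was then 0.22 in SOD1-mutant motor neurons, below the 0.25 of all genes, and 0.28 in wild-type motor neurons, beside 0.26. With each array centred on its median the counts were 47 and 48 higher, and 0 lower, while 51.9% and 57.8% of all genes were called higher and 14.5% and 15.3% lower. The median over all genes moved to 0.72 in SOD1-mutant and 0.81 in wild-type motor neurons under centring. Under all 3 scalings, 23 genes were called higher in SOD1-mutant and 32 in wild-type motor neurons, and none was called lower under all 3. Of all genes, at most 28.4% and 31.1% can be called higher under all 3, and at most 14.5% and 15.3% lower. These are the smallest shares under any 1 scaling. Differences from cord are therefore relative to the scaling used.

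**Figure D1:**
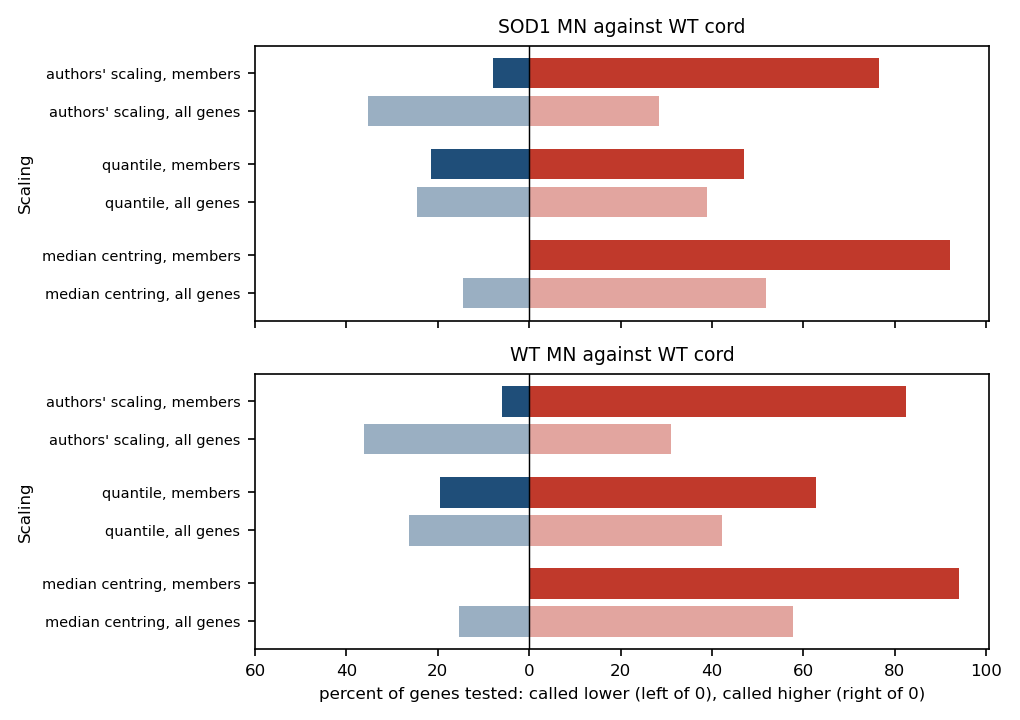
Share of genes called higher (right of 0) or lower (left of 0) against cord, in percent of genes tested, for SOD1-mutant (upper panel) and wild-type motor neurons (lower panel) under 3 scalings. Dark bars are the 51 respiratory chain and ATP synthase genes and pale bars all 12983 genes; with quantile normalization the dark bars come closest to the pale ones, at 24 higher and 11 lower, and 32 higher and 10 lower.

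Between arrays the direction was steady on the authors' scaling. The median over the 51 genes, relative to the cord mean, was 0.54, 0.87 and 0.79 on the SOD1-mutant arrays and 0.70, 0.82 and 0.73 on the wild-type motor neuron arrays. All SOD1-mutant arrays lay above all cord arrays for 39 genes (31.8% of all genes tested did so), and below them for 5 (39.4%). All wild-type motor neuron arrays lay above all cord arrays for 43 genes (33.7%), and below them for 3 (39.7%). With arrays 1 and 2 alone, 28 genes were higher and 1 lower in SOD1-mutant motor neurons, and 39 and 2 in wild-type motor neurons. The shares over all genes were then 20.3% and 24.6%, and 24.0% and 26.9%. Genes that lost their call in SOD1-mutant motor neurons in that setting were Ndufa10, Ndufs1, Ndufs4, Ndufv1, Sdhb, Sdhc, Sdhd, Cox4i1, Cox5b, Cox6a1, Cox6c, Ndufa4, Atp5b and Atp5g3. In wild-type motor neurons they were Ndufb5, Uqcrc1, Atp5b and Atp5o.

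**Figure D2:**
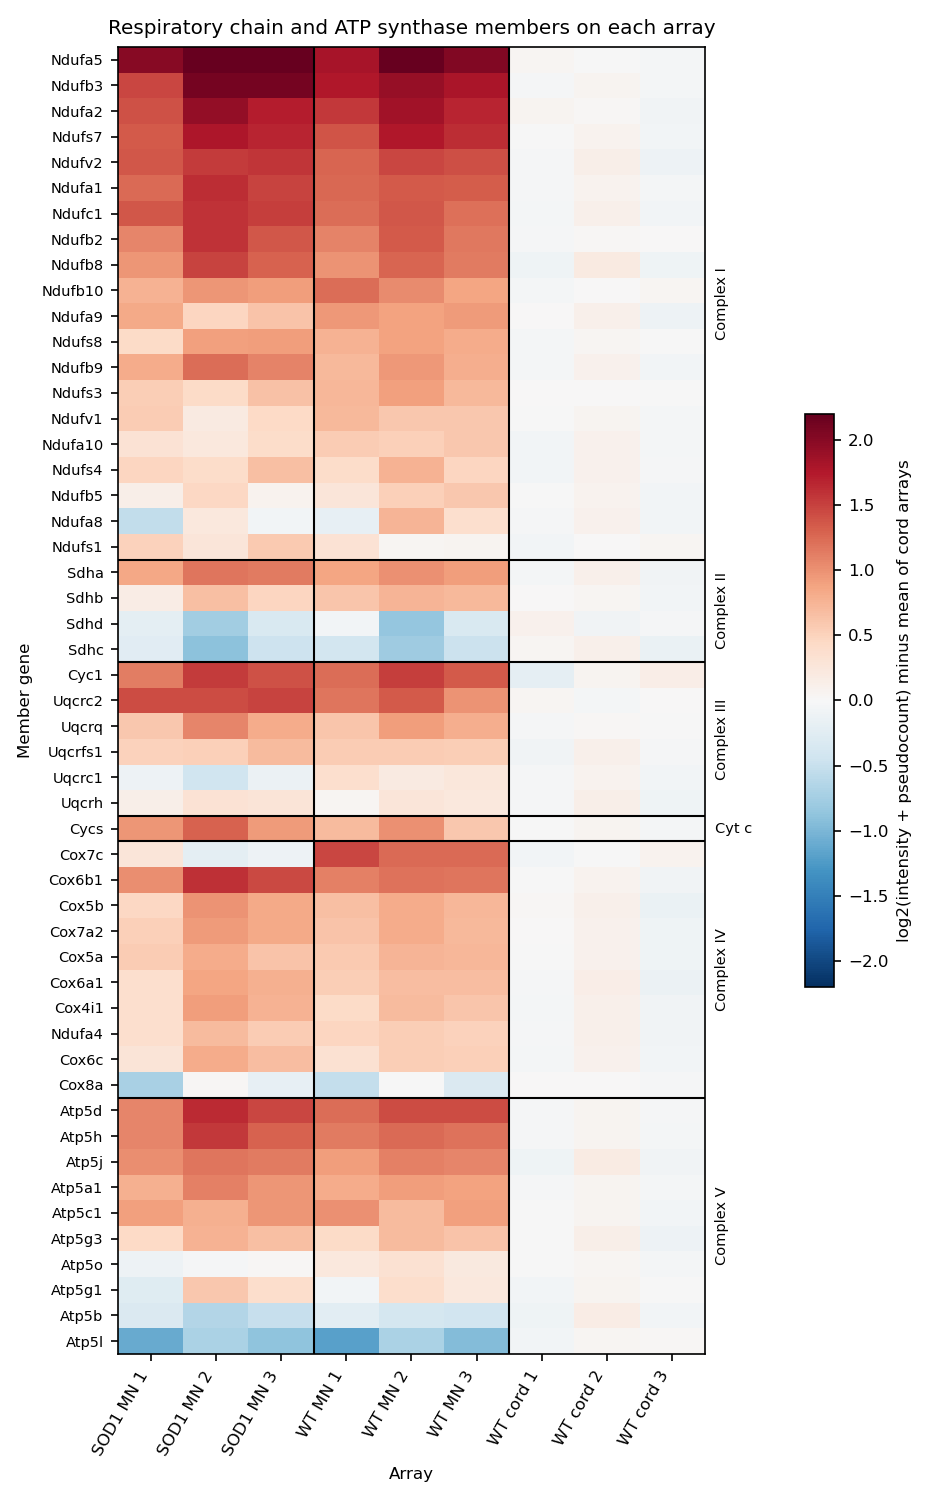
Log2(intensity + pseudocount) of each of 51 genes on each of 9 arrays, minus the mean of the 3 cord arrays, on the authors' scaling, with genes grouped by complex and sorted by the wild-type difference. Red is higher and blue lower than cord; most rows are red on all 6 captured arrays, and Sdhd, Sdhc, Cox8a, Atp5b and Atp5l are blue or pale, colours that change under quantile normalization or median centring for the genes named in the closing section.

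Complex I, the NADH dehydrogenase, had the highest median of the 5 complexes in both genotypes under each of the 3 scalings. Of its 20 genes, 18 were higher in SOD1-mutant motor neurons (median 0.97) and 18 in wild-type motor neurons (median 0.98), and none was lower on the authors' scaling. With quantile normalization these counts were 11 higher and 3 lower in SOD1-mutant and 15 higher and 1 lower in wild-type motor neurons, and with median centring all 20 were higher in both. Arrays 1 and 2 alone gave 14 higher in SOD1-mutant and 17 in wild-type motor neurons, and none lower. For this and the other complexes, the shares of all genes were 28.4% higher and 35.3% lower, and 31.1% and 36.1%. Quantile normalization gave 39.0% and 24.6%, and 42.2% and 26.2%, and centring 51.9% and 14.5%, and 57.8% and 15.3%. With arrays 1 and 2 alone they were 20.3% and 24.6%, and 24.0% and 26.9%. Ndufa5, an accessory subunit of the arm that reaches into the matrix, read 84665, 100187 and 97198 on the SOD1-mutant motor neuron arrays, 74271, 98917 and 86163 on the wild-type motor neuron arrays and 21778, 20946 and 20556 on the cord arrays. No captured array came near a cord array. The log2 fold change was 2.15 ± 0.10 (SE, adjusted p = 1.86e-06) in SOD1-mutant and 2.02 ± 0.10 (SE, adjusted p = 8.18e-07) in wild-type motor neurons, or 4.44-fold and 4.07-fold. Ndufb3, an accessory subunit of the membrane arm, read 70369, 109570 and 108417 on SOD1-mutant, 85514, 95644 and 87627 on wild-type motor neuron and 24968, 26508 and 24522 on cord arrays. Array 1 was the lowest of the SOD1-mutant arrays and still more than any cord array. Its fold change on the log2 scale was 1.89 ± 0.17 (SE, adjusted p = 3.17e-05) and 1.82 ± 0.073 (SE, adjusted p = 3.16e-07) in the same order.

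The core subunits of complex I, most of which bind cofactors, spread over most of this range. Ndufs7, which holds the last iron-sulfur cluster before ubiquinone, was 3.04-fold higher in SOD1-mutant and 3.01-fold higher in wild-type motor neurons, and Ndufv2, another iron-sulfur subunit, 2.82-fold and 2.62-fold. Ndufs8, also an iron-sulfur subunit, was 1.69-fold and 1.77-fold higher, and Ndufs3 1.45-fold and 1.72-fold. Ndufv1, which binds NADH and the flavin, was 1.32-fold and 1.55-fold higher. All of these were called in both comparisons on the authors' scaling, and with quantile normalization Ndufv1 turned to -0.10 in SOD1-mutant motor neurons on the log2 scale, not called. Ndufs1, the largest core subunit, was the closest to cord in wild-type motor neurons, at 38222, 32644 and 40094 on the SOD1-mutant motor neuron arrays, 33844, 27909.7 and 28221 on the wild-type motor neuron arrays and 25870, 27292 and 27831 on the cord arrays. SOD1-mutant and wild-type motor neuron arrays all lay above the cord arrays, the wild-type ones by little. In log2 units the fold change was 0.45 ± 0.11 (SE, adjusted p = 0.00673) in SOD1-mutant and 0.15 ± 0.092 (SE, adjusted p = 0.190) in wild-type motor neurons, and quantile normalization turned both negative, to -0.036 and -0.30.

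Among accessory subunits, Ndufa8, which faces the intermembrane space, varied between arrays of a group. It read 22736, 39076 and 31625 on SOD1-mutant, 29354, 55793 and 42569.5 on wild-type motor neuron and 32521, 35366 and 31635 on cord arrays. Array 1 was low and array 2 high in both captured groups, and both overlapped cord. Neither log2 fold change was called, at -0.12 ± 0.18 (SE, adjusted p = 0.576) in SOD1-mutant and 0.31 ± 0.20 (SE, adjusted p = 0.193) in wild-type motor neurons. The other accessory subunits with large differences were Ndufa2, a small matrix-arm subunit, at 1.69 and 1.69, and Ndufa1, a membrane-arm subunit, at 1.45 and 1.31. Ndufc1, Ndufb2 and Ndufb8, all of the membrane arm, had 1.495, 1.34 and 1.25 in SOD1-mutant and 1.27, 1.20 and 1.13 in wild-type motor neurons. All 5 were called higher in both comparisons under all 3 scalings on their brightest probe sets. The dimmest tested probe set of Ndufc1 had -0.34, called lower, in SOD1-mutant and -0.25, not called, in wild-type motor neurons. For Ndufb2 the dimmest had -0.015 in SOD1-mutant motor neurons, not called. Ndufb10, Ndufa9, Ndufb9, Ndufa10, Ndufs4 and Ndufb5 lay between 0.22 and 1.05 in SOD1-mutant and between 0.46 and 1.04 in wild-type motor neurons on the authors' scaling. Ndufb5 was not called in SOD1-mutant motor neurons, and with quantile normalization it and Ndufa10 were called lower there.

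Complex II, the succinate dehydrogenase, had 2 genes higher and 2 lower of 4 in SOD1-mutant motor neurons (median -0.0045) and 2 higher and 1 lower in wild-type motor neurons (median 0.14). With quantile normalization this was 1 higher and 2 lower, and 2 higher and 2 lower, and with centring 2 higher and none lower in both. For arrays 1 and 2 alone it was 1 higher and 0 lower, and 2 higher and 1 lower. On the authors' scaling and the brightest probe sets, the catalytic subunits Sdha and Sdhb were the higher ones. Sdha, the flavoprotein that oxidises succinate, read 56714, 70857 and 69564 on the SOD1-mutant motor neuron arrays, 57259.9, 62916 and 59623 on the wild-type motor neuron arrays and 30547, 33959.6 and 29888 on the cord arrays. Captured arrays of both genotypes lay well above cord, with a log2 fold change of 1.06 ± 0.12 (SE, adjusted p = 1.02e-04) in SOD1-mutant and 0.93 ± 0.077 (SE, adjusted p = 1.09e-05) in wild-type motor neurons. Sdhb, the iron-sulfur subunit, read 45621, 63812 and 56326 on SOD1-mutant, 61592, 68378 and 66317 on wild-type motor neuron and 40920.3, 42018 and 38761 on cord arrays. The groups did not overlap with cord, and the log2 fold change was 0.43 ± 0.13 (SE, adjusted p = 0.0201) and 0.69 ± 0.071 (SE, adjusted p = 4.05e-05), the first of which turned to -0.11 with quantile normalization, not called.

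The anchors Sdhc and Sdhd hold the complex in the membrane and help bind ubiquinone. Sdhc read 16026, 10184 and 13888 on the SOD1-mutant motor neuron arrays, 14339.6, 10951 and 13708 on the wild-type motor neuron arrays and 19528, 20368 and 17122 on the cord arrays. Every captured array was below every cord array. On the log2 scale the change was -0.53 ± 0.17 (SE, adjusted p = 0.0247) in SOD1-mutant and -0.55 ± 0.12 (SE, adjusted p = 0.00331) in wild-type motor neurons, and with median centring it was 0.32 and 0.35, neither called. Sdhd read 15479, 10573 and 14218 on SOD1-mutant, 17193, 9927 and 14311 on wild-type motor neuron and 19173, 17117 and 17792 on cord arrays. Array 2 was the lowest of each captured group, and wild-type array 1 overlapped cord. Its log2 fold change was -0.44 ± 0.15 (SE, adjusted p = 0.0311) and -0.42 ± 0.18 (SE, adjusted p = 0.0653), called lower in SOD1-mutant and not called in wild-type motor neurons, and with centring 0.41 and 0.49, not called. The order of the pairs, Sdha and Sdhb above Sdhc and Sdhd, held on each of the 3 scalings for the brightest probe sets, and the difference between the pairs was not tested. Other probe sets of 2 of these genes went the other way: the dimmest of Sdha had -1.25, called lower, in SOD1-mutant and -1.68, not called, in wild-type motor neurons, and the second of Sdhd had 1.23 and 0.71, both called higher.

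Complex III, which passes electrons from ubiquinol to cytochrome c, had 4 of 6 genes higher in SOD1-mutant (median 0.70) and 5 of 6 in wild-type motor neurons (median 0.66). With quantile normalization 3 were higher and 2 lower in both, and with centring all 6 were higher. Using arrays 1 and 2 alone, 4 were higher and none lower in both. Cyc1, the cytochrome c1 that hands electrons to cytochrome c, read 63706, 83868 and 77078 on the SOD1-mutant motor neuron arrays, 68068, 83007 and 74118 on the wild-type motor neuron arrays and 25229, 30217 and 32099.8 on the cord arrays. All captured arrays lay far above every cord array. Against cord the log2 fold change was 1.36 ± 0.14 (SE, adjusted p = 6.16e-05) in SOD1-mutant and 1.37 ± 0.11 (SE, adjusted p = 9.04e-06) in wild-type motor neurons. Uqcrc2, a core protein on the matrix side, read 83801, 83427 and 87069 on SOD1-mutant, 69693, 78844 and 61286 on wild-type motor neuron and 31790.2, 30057 and 31017 on cord arrays. The SOD1-mutant arrays were the highest, and the log2 fold change was 1.45 ± 0.088 (SE, adjusted p = 4.64e-06) and 1.17 ± 0.10 (SE, adjusted p = 9.94e-06). Uqcrfs1, the Rieske iron-sulfur protein, was 1.49-fold and 1.47-fold higher, and the small subunit Uqcrq 1.77-fold and 1.71-fold.

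The other core protein and the hinge protein of complex III stayed near cord. Uqcrc1, the partner of Uqcrc2, read 30473, 24283 and 30127 on the SOD1-mutant motor neuron arrays, 42526, 37809.7 and 39154 on the wild-type motor neuron arrays and 32639, 34825 and 31746 on the cord arrays. The wild-type neurons lay above cord and the SOD1-mutant neurons below it, without overlap. The log2 fold change was -0.23 ± 0.12 (SE, adjusted p = 0.117) in SOD1-mutant and 0.27 ± 0.076 (SE, adjusted p = 0.0130) in wild-type motor neurons, and the second, a call, turned to a call lower with quantile normalization (-0.21). Uqcrh, the hinge protein that helps cytochrome c dock, read 61362, 70287 and 68519.9 on SOD1-mutant, 58318, 67686 and 65876 on wild-type motor neuron and 55039, 61510.3 and 52727 on cord arrays. The 3 groups overlapped and neither difference was called, at 0.24 ± 0.11 (SE, adjusted p = 0.0756) and 0.18 ± 0.087 (SE, adjusted p = 0.0975), while quantile normalization called it lower in both.

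Cytochrome c, the mobile carrier between complexes III and IV, is encoded by Cycs in somatic tissues. It read 113447, 141977 and 110751 on the SOD1-mutant motor neuron arrays, 94003, 116009 and 87158 on the wild-type motor neuron arrays and 57399, 60242 and 55912 on the cord arrays. The captured arrays of both genotypes lay above cord, with a log2 fold change of 1.07 ± 0.12 (SE, adjusted p = 9.79e-05) in SOD1-mutant and 0.77 ± 0.10 (SE, adjusted p = 2.23e-04) in wild-type motor neurons, called under all 3 scalings and with arrays 1 and 2 alone. The dimmest tested probe set of Cycs had -0.24 and -0.85, neither called.

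Complex IV, the cytochrome c oxidase, had 8 of 10 genes higher in SOD1-mutant (median 0.67) and 9 of 10 in wild-type motor neurons (median 0.66), and none lower. With quantile normalization this was 4 higher and 1 lower, and 6 higher and 1 lower, and with centring all 10 were higher in both. Arrays 1 and 2 alone left 3 higher in SOD1-mutant and 9 in wild-type motor neurons, and none lower. The quantile counts were 40% and 10%, and 60% and 10%, beside 39.0% and 24.6%, and 42.2% and 26.2%, of all genes. Cox6b1, which links the dimer on the intermembrane side, read 129910, 193861 and 173587 on the SOD1-mutant motor neuron arrays, 137358, 145554 and 144180 on the wild-type motor neuron arrays and 63506, 67516 and 60108 on the cord arrays. Captured arrays were above cord without overlap, at 1.36 ± 0.15 (SE, adjusted p = 9.75e-05) in SOD1-mutant and 1.16 ± 0.068 (SE, adjusted p = 1.53e-06) in wild-type motor neurons on the log2 scale. A block of ubiquitous subunits had nearly the same difference. Cox4i1, Cox5a, Cox5b, Cox6a1, Cox7a2 and Ndufa4 lay between 0.54 and 0.76 in SOD1-mutant and between 0.51 and 0.74 in wild-type motor neurons, all called on the authors' scaling, while with quantile normalization Ndufa4 was slightly negative and not called. In that setting Cox4i1 was not called in either genotype, at 0.091 and 0.068, nor were Cox5a (0.039) and Cox6a1 (0.11) in SOD1-mutant motor neurons. Cox6c, a small membrane subunit, read 87909, 126589 and 114873 on SOD1-mutant, 91126, 104966 and 103424 on wild-type motor neuron and 70069, 76775 and 69112 on cord arrays. It was higher in captured neurons, at 0.59 ± 0.14 (SE, adjusted p = 0.00657) and 0.47 ± 0.079 (SE, adjusted p = 7.85e-04), and with quantile normalization -0.016 and -0.054, not called.

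Cox8a and Cox7c departed from the block. Cox8a, another small membrane subunit, read 28053, 46524 and 40432 on the SOD1-mutant motor neuron arrays, 32069, 45804 and 36674 on the wild-type motor neuron arrays and 46164, 46485 and 45223 on the cord arrays. Array 1 of each captured group was far below cord while array 2 was level with it. On the log2 scale the change was -0.29 ± 0.17 (SE, adjusted p = 0.174) and -0.28 ± 0.12 (SE, adjusted p = 0.0653), not called, with opposite calls under quantile normalization (lower) and centring (higher). Cox7c, also a small membrane subunit, was read by a dim probe set at 921, 648 and 702 on the SOD1-mutant motor neuron arrays, 2147, 1831 and 1827 on the wild-type motor neuron arrays and 724, 752 and 803 on the cord arrays. The wild-type neurons were far brighter than the other groups, which overlapped. The log2 fold change against cord was -0.019 ± 0.23 (SE, adjusted p = 0.948) in SOD1-mutant and 1.32 ± 0.17 (SE, adjusted p = 1.47e-04) in wild-type motor neurons, and the SOD1-mutant value was 0.88 with quantile normalization and 0.83 with centring, both called higher.

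Complex V, the ATP synthase, had 6 of 10 genes higher and 2 lower in SOD1-mutant (median 0.76) and 7 higher and 2 lower in wild-type motor neurons (median 0.73). With quantile normalization it was 4 higher and 3 lower, and 5 higher and 4 lower, and with centring 8 and 9 higher and none lower. For arrays 1 and 2 alone it was 5 higher and 1 lower, and 6 higher and 1 lower. The quantile counts were 40% and 30%, and 50% and 40%, beside 39.0% and 24.6%, and 42.2% and 26.2%, of all genes. In the catalytic head and central stalk, the subunits differed in direction on the authors' scaling. Atp5d, the delta subunit of the central stalk, read 93712, 137503 and 123061 on the SOD1-mutant motor neuron arrays, 103828, 120120 and 119448 on the wild-type motor neuron arrays and 43385, 45877 and 43574 on the cord arrays. Captured arrays lay above cord without overlap, at 1.40 ± 0.14 (SE, adjusted p = 6.40e-05) and 1.37 ± 0.077 (SE, adjusted p = 1.25e-06). Atp5a1 (alpha) and Atp5c1 (gamma) were 1.94-fold and 1.85-fold higher in SOD1-mutant and 1.84-fold and 1.82-fold higher in wild-type motor neurons on their brightest probe sets. Atp5b, the catalytic beta subunit, read 56731, 45003 and 49955 on SOD1-mutant, 59981, 53772 and 52506 on wild-type motor neuron and 65944, 79395 and 67539 on cord arrays. Every captured array was below every cord array. Against cord the log2 fold change was -0.49 ± 0.12 (SE, adjusted p = 0.00820) in SOD1-mutant and -0.35 ± 0.092 (SE, adjusted p = 0.00826) in wild-type motor neurons, and with centring it was 0.36, not called, and 0.55, called higher.

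The stalk and membrane parts of the synthase also split. Atp5h, subunit d of the outer stalk, read 109876, 153366 and 127731 on SOD1-mutant, 114649, 124046 and 119655 on wild-type motor neuron and 51172, 54178 and 50666 on cord arrays. It was higher at 1.31 ± 0.13 (SE, adjusted p = 5.37e-05) and 1.20 ± 0.065 (SE, adjusted p = 1.07e-06), and Atp5j, coupling factor 6 of the same stalk, at 1.11 and 1.03, both under all 3 scalings. The dimmest tested probe set of Atp5h had -0.030 in SOD1-mutant motor neurons, not called. Atp5o, which joins the stalk to the head, was -0.036 in SOD1-mutant, not called, and 0.26 in wild-type motor neurons, called, a call that quantile normalization turned to lower (-0.26). In SOD1-mutant motor neurons its dimmest tested probe set had 1.13 and the mean of its tested probe sets 0.55, both called higher. Atp5l, subunit g, which helps synthase dimers form, read 17461, 23442 and 20608 on the SOD1-mutant motor neuron arrays, 16514, 23398 and 19657 on the wild-type motor neuron arrays and 36164, 39212 and 38359 on the cord arrays. Every captured array was well below every cord array. Its log2 fold change was -0.90 ± 0.12 (SE, adjusted p = 3.38e-04) and -0.95 ± 0.12 (SE, adjusted p = 1.49e-04), lower with quantile normalization too, and -0.048 and -0.039 with centring, not called.

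Atp5g1 and Atp5g3 encode the same mature subunit c of the rotor behind different import sequences. Atp5g1 read 32040.5, 58401 and 50854 on SOD1-mutant, 37236, 50347 and 45566 on wild-type motor neuron and 37145, 40494 and 38441 on cord arrays. Atp5g3 read 109224, 138218 and 128355 on SOD1-mutant, 108082, 131355 and 125524 on wild-type motor neuron and 80482, 88328 and 74429.6 on cord arrays. Atp5g1 overlapped cord in both genotypes, while Atp5g3 did not in either. Their log2 fold changes were 0.24 ± 0.20 (SE, adjusted p = 0.330) and 0.62 ± 0.12 (SE, adjusted p = 0.00219) in SOD1-mutant, and 0.19 ± 0.11 (SE, adjusted p = 0.163) and 0.58 ± 0.095 (SE, adjusted p = 6.24e-04) in wild-type motor neurons. The difference between the genes was not tested, and with quantile normalization Atp5g1 was called lower in wild-type motor neurons (-0.29) and Atp5g3 not called.

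**Figure D3:**
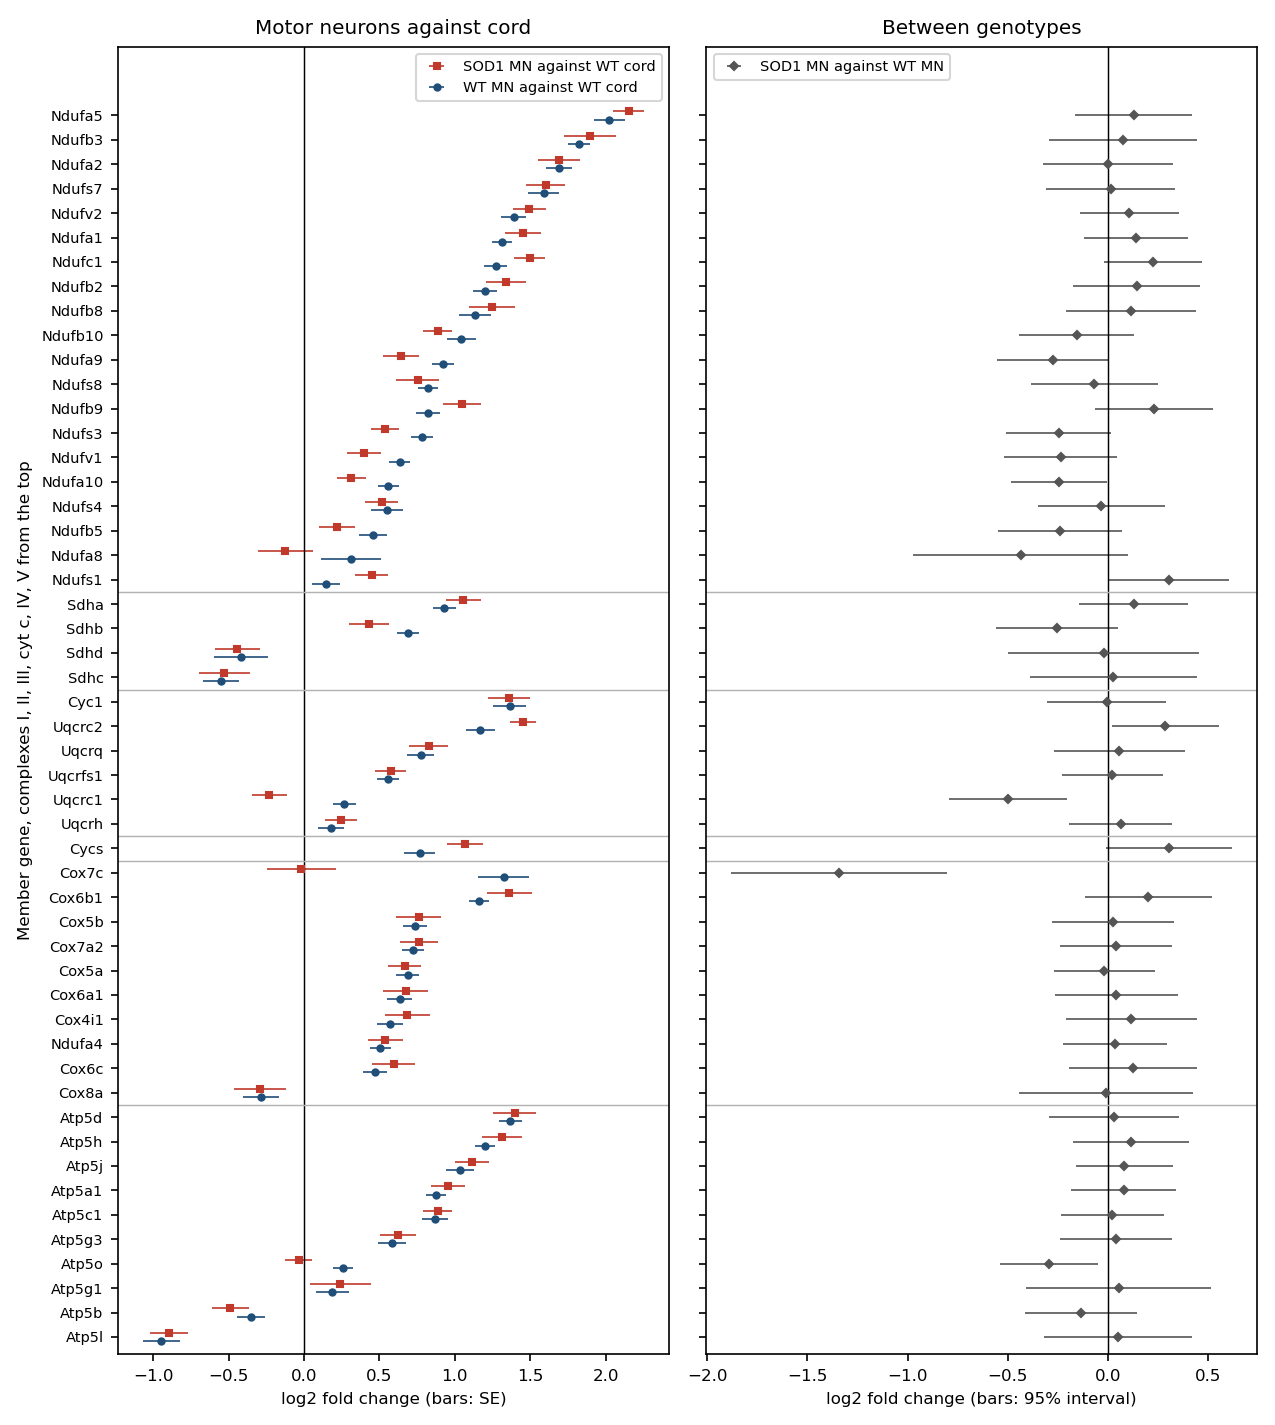
Log2 fold change of each of 51 genes on the authors' scaling: SOD1-mutant (squares) and wild-type (circles) motor neurons against cord with SE at left, and SOD1-mutant against wild-type motor neurons with 95% intervals at right, complexes separated by lines. Squares and circles lie close together for most genes; Cox7c and Uqcrc1 are the widest apart, and points near 0 can change side under quantile normalization or centring.

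Most genes here were read by more than 1 probe set, and the brightest represents each above. Of the 98 probe sets tested, 61 were called higher and 15 lower in SOD1-mutant and 71 higher and 9 lower in wild-type motor neurons. Over all 27022 probe sets the shares were 21.9% higher and 40.2% lower in SOD1-mutant and 24.0% and 41.5% in wild-type motor neurons. Using arrays 1 and 2 alone, 44 of the 98 were higher and 6 lower, and 63 and 6. For genes rather than probe sets, the shares over all genes in that setting were 20.3% and 24.6%, and 24.0% and 26.9%. Among the 31 genes with several tested probe sets, all were called higher for 9 genes in SOD1-mutant and 14 in wild-type motor neurons, and all lower for 1 in both, Sdhc. Probe sets called in opposite directions occurred for 7 genes in SOD1-mutant (Atp5a1, Ndufb9, Ndufc1, Ndufs8, Ndufv1, Sdha and Sdhd) and 4 in wild-type motor neurons (Atp5a1, Ndufb9, Ndufs8 and Ndufv1). Ndufb9, an accessory subunit of complex I, was the widest apart of these 4. Its brightest probe set was higher at 1.05 in SOD1-mutant and 0.82 in wild-type motor neurons, while the second was lower at -1.08 and -1.02, of which the wild-type value was -0.11 with centring, not called. That second probe set read 25055, 26276 and 25825 on SOD1-mutant, 26802, 28681 and 24984 on wild-type motor neuron and 52809, 56691 and 53342 on cord arrays. The second probe set of Atp5a1 had -0.61 and -0.36 where the brightest had 0.95 and 0.88, and with centring the wild-type value of the second was 0.55, called higher. For Cox6c both were higher, at 0.59 and 2.002 in SOD1-mutant and 0.47 and 1.82 in wild-type motor neurons. Where along the transcript each probe set lies was not examined, and the part of the lower 5′ signal in these splits was not tested. How often the probe sets of other genes agree or split in this way was not counted.

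**Figure D4:**
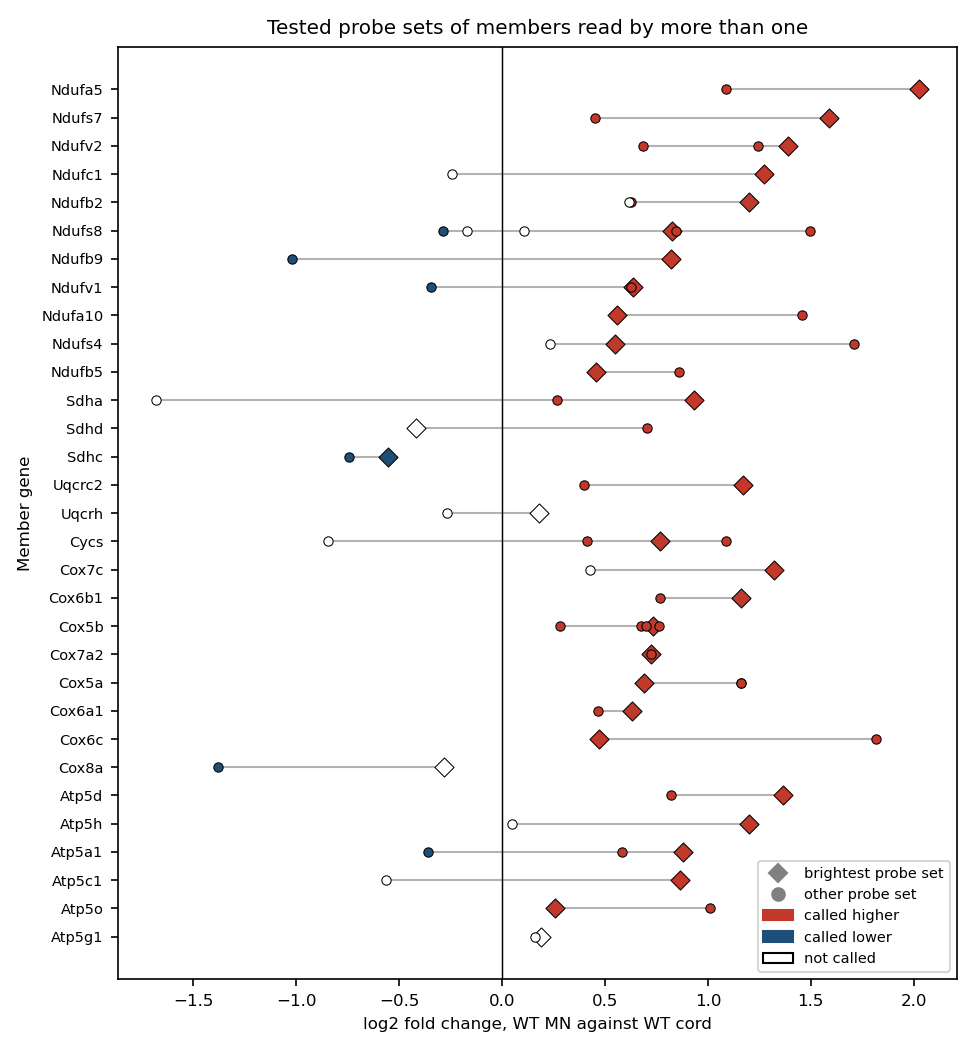
Log2 fold change in wild-type motor neurons against cord of every tested probe set of the 31 genes with more than 1, on the authors' scaling; diamonds are the brightest probe set of a gene, red is called higher, blue lower and white not called. Blue and red points on 1 line mark Ndufs8, Ndufb9, Ndufv1 and Atp5a1, and Sdhc is blue throughout.

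Between the genotypes no subunit passed the test. In SOD1-mutant against wild-type motor neurons, 0 of the 51 genes were called higher and 0 lower by limma, and 7 had an unadjusted p under 0.05 (2182 of 12983 genes, 16.8%, did so), with a median log2 fold change of 0.03. Over all 12983 genes, 0.169% were called higher and 0.0847% lower, and the median was -0.0051. With arrays 1 and 2 alone the count was also 0 and 0, against 0.0154% and 0% of all genes. By complex the medians were 0.0056 for I, 0.00076 for II, 0.038 for III, 0.035 for IV and 0.045 for V, and with quantile normalization or centring the median over all 51 turned to -0.028 in both. SOD1-mutant arrays lay above all wild-type arrays for 2 genes (11.6% of all genes did so), Ndufc1 and Uqcrc2, and below them for 7 (12.8%): Ndufa9, Ndufa10, Ndufs3, Ndufv1, Uqcrc1, Cox7c and Atp5o. For every gene but Cox7c the 95% interval lay between -1 and 1. With quantile normalization and with centring the count was again 0 and 0, where 0.131% and 0.0154%, and 0.0693% and 0.0154%, of all genes were called higher and lower. With array weights 13 were higher and 9 lower, against 24.8% and 27.2% of all genes.

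The largest difference was in Cox7c, whose intensities were given above and did not overlap between genotypes. It was 2.54-fold lower in SOD1-mutant motor neurons, with a log2 fold change of -1.34 ± 0.24 (SE, adjusted p = 0.0618) and a 95% interval of -1.88 to -0.81. Over the alternatives tried, its adjusted p ranged from 5.83e-06 to 0.906, the last with arrays 1 and 2 alone, where the log2 fold change was -1.34. It passed when dim probe sets were filtered at the 60th percentile (0.0481), with all 9 arrays in 1 fit (0.00959), with the replicate number as a block (0.0317) and with array weights. In that order these settings called 0.186%, 2.33%, 0.886% and 27.2% of all genes lower, against 0.0847% in the reported fit. The other probe set of Cox7c read 120, 179 and 19 on SOD1-mutant arrays and 528, 219 and 421 on wild-type motor neuron arrays, where background was 157 to 244 and 131 to 147. Uqcrc1 came next, with a log2 fold change of -0.50 ± 0.13 (SE, adjusted p = 0.138), and its SOD1-mutant arrays lay below both wild-type groups. It passed with all 9 arrays (0.0317), with the replicate number as a block (0.0480) and with array weights (0.00016), settings whose shares of all genes are given above. The largest positive differences were Cycs at 0.30 ± 0.14 (SE, adjusted p = 0.345) and Ndufs1 at 0.30 ± 0.14 (SE, adjusted p = 0.326), with genotypes that overlapped. Several marker sums, given above, also separated the genotypes: those of astrocyte, oligodendrocyte and microglia markers were higher on all SOD1-mutant than on all wild-type motor neuron arrays, and that of motor neuron markers was lower. Gene by gene, all SOD1-mutant arrays were the higher ones for 2 of 8 astrocyte, 1 of 7 oligodendrocyte and 2 of 8 microglia markers. They were the lower ones for 1 oligodendrocyte and 3 of 10 motor neuron markers. No oligodendrocyte, microglia or motor neuron marker was called. Of the 8 astrocyte markers, Gja1 was called higher, a call that was lost with arrays 1 and 2 alone (adjusted p = 0.392), and the part of these differences in the values of the subunits was not tested.

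**Figure D5:**
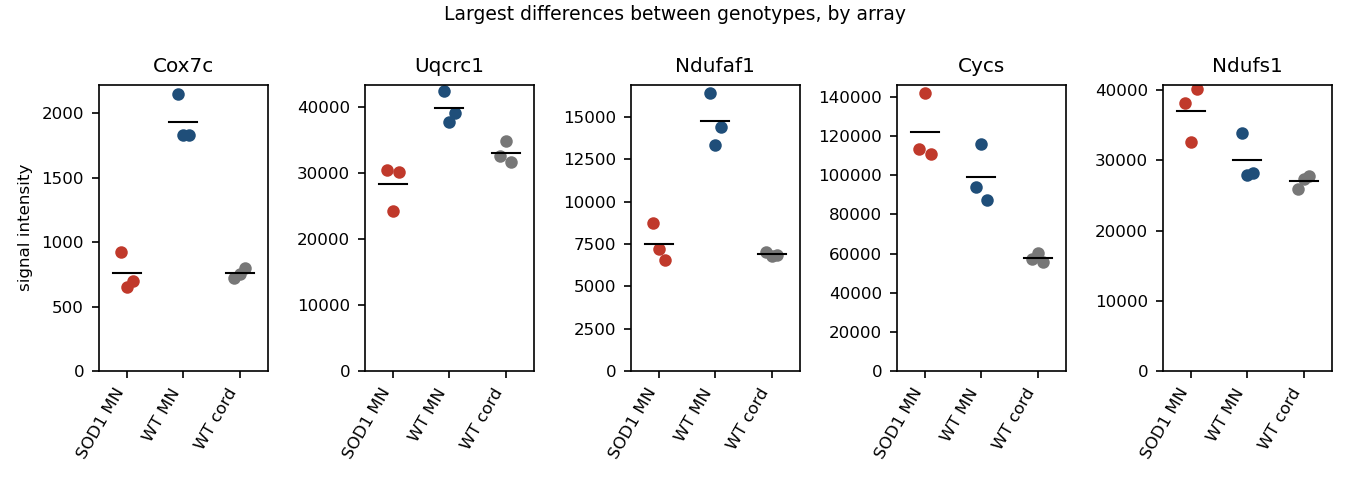
Intensity on each array (points) and group mean (lines), each panel from 0, for the 2 subunit genes with the largest difference in each direction between genotypes and for Ndufaf1, an assembly factor. Cox7c, Uqcrc1 and Ndufaf1 have all SOD1-mutant arrays below all wild-type motor neuron arrays, and for Cycs and Ndufs1 the genotypes overlap.

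The rest of the pathway gave a mixed picture against cord. Of 31 further subunits, 25 were tested, and 16 were higher and 5 lower in SOD1-mutant and likewise 16 and 5 in wild-type motor neurons, with 15 and 7 under quantile normalization and 20 and 2 under centring in both. Arrays 1 and 2 alone gave 15 and 4, and 16 and 5. On the authors' scaling the counts were 64% higher and 20% lower in both genotypes. The shares of all genes were 28.4% and 35.3% in SOD1-mutant and 31.1% and 36.1% in wild-type motor neurons. Those of the other settings stand with the assembly factors below. Cox7a2l, which joins complexes III and IV into supercomplexes, rose by 1.91 and 1.83 on the log2 scale, and Ndufb6 of complex I by 1.87 and 1.69. Uqcr10 of complex III was lower at -1.43 and -1.65. Cox6b2, an isoform best known from testis, was also called lower, but 2 of 3 SOD1-mutant and 1 of 3 wild-type motor neuron arrays were above background, so no size is given. It read 181, 63.2 and 212 on SOD1-mutant, 51.7, 285 and 89.6 on wild-type motor neuron and 1294, 568 and 1126 on cord arrays. All 4 kept their direction under the other scalings and with arrays 1 and 2 alone.

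Assembly factors and regulators moved in both directions on the authors' scaling, as did the genes tested as a whole. Of 29 assembly factors tested, 11 were higher (37.9%) and 8 lower (27.6%) in SOD1-mutant motor neurons. In wild-type motor neurons 15 were higher (51.7%) and 9 lower (31.0%). The shares of all genes were 28.4% and 35.3%, and 31.1% and 36.1%. Quantile normalization gave 14 and 5, and 17 and 4, against 39.0% and 24.6%, and 42.2% and 26.2%, of all genes. Centring gave 19 and 0, and 23 and 0, against 51.9% and 14.5%, and 57.8% and 15.3%. Arrays 1 and 2 alone gave 10 and 6, and 11 and 4, against 20.3% and 24.6%, and 24.0% and 26.9%. Ttc19, for complex III, was at 2.22 and 1.76 and Ndufaf2, for complex I, at 1.68 and 1.69, while Uqcc2, for complex III, was at -0.82 and -1.09 and Foxred1, for complex I, at -0.92 and -1.06, and neither was called with centring, where Uqcc2 turned to 0.027 in SOD1-mutant motor neurons. There Uqcc2 was not called with arrays 1 and 2 alone either. Ndufaf1, an early assembly factor of complex I, was the one gene of the 4 further lists called between the genotypes. It read 8765, 7185 and 6556 on SOD1-mutant, 16418, 13361 and 14406 on wild-type motor neuron and 7038, 6769 and 6866 on cord arrays. SOD1-mutant neurons were thus near cord and below wild-type neurons without overlap, at -0.98 ± 0.16 (SE, adjusted p = 0.0485), and the call was lost with quantile normalization, with centring and with arrays 1 and 2 alone (adjusted p = 0.906).

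Of 12 regulators, 4 were higher (33.3%) and 2 lower (16.7%) in SOD1-mutant motor neurons. In wild-type motor neurons 3 were higher (25%) and 4 lower (33.3%). The shares of all genes were 28.4% and 35.3%, and 31.1% and 36.1%. Quantile normalization gave 7 and 0, and 4 and 1, against 39.0% and 24.6%, and 42.2% and 26.2%, of all genes. Centring gave 10 and 0, and 7 and 0, against 51.9% and 14.5%, and 57.8% and 15.3%. For arrays 1 and 2 alone it was 2 and 0, and 2 and 1, against 20.3% and 24.6%, and 24.0% and 26.9%. Atpif1, which inhibits the ATP synthase when it runs backwards, was higher at 1.82 and 1.77, and the nuclear receptor Esrra at 1.14 and 1.11. The coactivator Ppargc1a was lower at -0.65 and -0.78 and Gabpb1, the partner of GABPA, at -0.89 and -1.39, and neither was called with centring, where Ppargc1a turned to 0.20 and 0.12. Ppargc1a lost its call in both genotypes with arrays 1 and 2 alone, and Gabpb1 in SOD1-mutant motor neurons. Of 15 genes of the tricarboxylic acid cycle, which feeds the chain with NADH and succinate, 11 were higher (73.3%) and 2 lower (13.3%) in both genotypes. Under quantile normalization it was 10 and 4, and 10 and 3, and under centring 12 and 0, and 14 and 1. With arrays 1 and 2 alone it was 9 and 2, and 11 and 1. The shares of all genes in each setting are those given for the regulators. Sucla2, the ATP-forming succinyl-CoA ligase subunit, was at 1.48 and 1.43 and Pdhb of pyruvate dehydrogenase at 1.25 and 1.38. Suclg2, the GTP-forming counterpart of Sucla2, was lower at -0.93 and -1.89, the first of which was not called with centring. Ogdh, of the oxoglutarate dehydrogenase, was lower at -0.74 and -0.30, and with centring turned to 0.11, not called, and 0.61, called higher. Its call in wild-type motor neurons was also lost with arrays 1 and 2 alone.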

How the data were processed

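RNA of 9 samples was read on single-channel arrays. Values are the linear intensity of every probe set that the authors deposited. Their software is not given in the sources used. The deposited intensity values have the same mean on every array after trimming 2% at each end, so they were scaled before deposit. The 64 control probe sets among 45101 were removed. Before taking log2, 20.3 (percentile 10 of all values) was added as pseudocount, which understates folds of dim probe sets. Probe sets whose mean over groups exceeded the 40th percentile were tested, each comparison on its 6 arrays, with limma 3.58.1 in R 4.3.3 (lmFit, eBayes with trend), two-sided, Benjamini-Hochberg adjusted. Intervals are 95% intervals of the moderated fit. Each gene was represented by its brightest tested probe set, ranked by the mean over the 3 groups, 2 of which are captured neurons. In wild-type motor neurons against cord the median over all genes was -0.10 on these and -0.44 on the dimmest tested probe sets. Background was the 95th percentile of 27 Bacillus subtilis probe sets on each array. Per-array values are given for the 2 highest and 2 lowest genes of each complex by wild-type difference, the largest genotype differences and the subunit c genes. Members, lists and tests were chosen with earlier results of these data known. The fits were tested on simulated data. Promoters and chromosomes come from RefSeq GRCm38.p6. Figures used matplotlib 3.10.9 in Python 3.11.15. Alternatives were other scalings, filters, pseudocounts (4 times larger or smaller), values raised to background, all 9 arrays in 1 fit, no trend, array weights (which did not fully converge), the replicate block, other probe sets and leaving out arrays.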

Additional observations from a re-analysis of the deposited data

How the results depend on the processing

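Between the genotypes, where no gene was called, genes called higher were 13 and lower 9 with array weights, where 24.8% and 27.2% of all genes were called, and lower were 1 with the filter at the 60th percentile (0.186% of all genes) and 2 with all 9 arrays (2.33%). Against cord, lower calls in SOD1-mutant motor neurons were 11 with quantile normalization (24 higher), 0 with centring, 2 without an intensity trend (34.3% of all genes), 9 on the dimmest probe set (41.9%) and 1 with arrays 1 and 2 alone, an alternative chosen after seeing the data. In wild-type motor neurons they were 10 with quantile normalization, 0 with centring, 5 with array weights and 6 on the dimmest probe set (42.1%). Without each array in turn, lower calls were 2 to 5 in SOD1-mutant (2 without cord array 1, cord array 2 or SOD1-mutant array 3) and 3 to 4 in wild-type motor neurons, and higher calls 36 to 41 and 41 to 45. Of all genes, 29.7% to 37.9% were then called lower and 24.7% to 29.7% higher in SOD1-mutant motor neurons. The shares in wild-type motor neurons were 31.4% to 37.5% lower and 28.2% to 32.4% higher. The cause of these moves was not tested. Deviations of same-numbered arrays correlated at 0.15, 0.17 and 0.0023 between the captured groups and at -0.043 to 0.031 against cord. For arrays with different numbers the correlations were -0.18 to 0.063 between the captured groups and -0.037 to 0.051 against cord. Whether same-numbered arrays form pairs was not tested. With the replicate number as a block, 2 genes were lower between genotypes (0.886% of all genes), and 5 lower in wild-type motor neurons against cord (35.5%).

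Log2 fold changes that changed sign, and were called before or after, are these, with the cause not tested. With quantile normalization they were Uqcrh -0.36, Ndufb5 -0.34, Ndufa10 -0.25, Sdhb -0.11, Ndufv1 -0.10, Ndufa4 -0.10, Ndufs1 -0.036, Cox6c -0.016 and Cox7c 0.88 in SOD1-mutant and Uqcrh -0.34, Ndufs1 -0.30, Atp5g1 -0.29, Atp5o -0.26, Uqcrc1 -0.21, Cox6c -0.054, Ndufb5 -0.040 and Ndufa4 -0.039 in wild-type motor neurons against cord. With centring they were Sdhc 0.32, Atp5b 0.36, Sdhd 0.41, Cox8a 0.55, Uqcrc1 0.62, Ndufa8 0.72, Atp5o 0.81 and Cox7c 0.83, and Sdhc 0.35, Atp5b 0.55 and Cox8a 0.62, in the same order of genotypes. When all tested probe sets were averaged they were Sdha -0.028, Ndufb9 -0.013, Sdhd 0.39 and Atp5o 0.55, and Sdha -0.16 and Ndufb9 -0.10. On the dimmest probe set they were Sdha -1.25, Ndufb9 -1.08, Ndufv1 -0.63, Atp5c1 -0.43, Uqcrh -0.41, Ndufc1 -0.34, Cycs -0.24, Cox5b -0.18, Atp5h -0.030, Ndufb2 -0.015, Atp5o 1.13 and Sdhd 1.23, and Sdha -1.68, Ndufb9 -1.02, Cycs -0.85, Atp5c1 -0.56, Ndufv1 -0.35, Ndufc1 -0.25 and Sdhd 0.71. Sign changes with no call before or after numbered 122 between genotypes, and 10 in SOD1-mutant and 5 in wild-type motor neurons against cord, of 1020 gene values under an alternative in each comparison. Direction and side of the threshold were kept by 871, 905 and 952, and 27, 17 and 21 passed newly, while 0, 55 and 22 lost the call. With 3 arrays a group, small differences could be missed, and no detection calls were used.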
